A study of Homo sapiens with 11 samples.

Results

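The exon array of this study assigns most annotated probe sets to a single gene, but 15195 of them to several gene symbols at once. The probe sets described here are the 14947 that carried at least 2 symbols in the array's annotation and had an estimate on all 11 arrays, out of 1379735 probe sets with an estimate on every array. The rule uses the annotation and the presence of an estimate, not a measured difference, but it was set with earlier results of these data known. The other 248 listed probe sets with several symbols (1.63%) lacked an estimate on some array, against 1.38% of the whole table. Just outside the rule lay 347084 probe sets with exactly 1 symbol, and just inside it 9780 with exactly 2, while the most crowded probe set carried 20. The members fell into 1869 distinct sets of symbols, each called a locus here, of which 566 held a single probe set and the median locus held 3.

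RNA came from T-REx-293 cells, HEK293-derived human embryonic kidney cells in which tetracycline turns on the introduced construct. All of them stably expressed a GFP plasmid (green fluorescent protein) and all received 2.5 µg/mL tetracycline for 72 h, controls included. The knockdown group held 3 arrays of shRNA A and 3 arrays of shRNA B, both hairpins against Tat-SF1, and the control group held 3 arrays of a hairpin against GFP and 2 arrays of the empty vector. The study describes the samples of each construct as biological triplicates; empty vector replicate 3 failed its quality control and was not analysed here. Whether the stable cells were clones or pools is not given in the sources used here. The study asked which genes and exons change when Tat-SF1, known as an elongation cofactor and a partner of the U2 snRNP in splicing, is depleted.

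No member probe set carries HTATSF1, the gene of Tat-SF1, so the knockdown was checked on that gene's own 14 probe sets. HTATSF1 measured 8.29, 8.21 and 8.22 log2 units on the shRNA A arrays and 8.11, 8.19 and 8.21 on the shRNA B arrays, against 8.53, 8.63 and 8.49 on the GFP shRNA arrays and 8.54 and 8.32 on the empty vector arrays. It was lower in the knockdown (log2 difference -0.30, SE 0.052, limma adjusted p = 0.0386), and the groups did not overlap. The markers of HEK293 cells VIM, INA, KRT8, KRT18, LIN28B and IGF2BP1 lay above the median of the table, 7.91, and NEFM lay close to it, with an average of 7.93 in the knockdown and 7.92 in controls. The 11 markers of hepatocytes, blood, fibroblasts and endothelium with a value reached at most 7.94 on any array. The share of member probe sets above a log2 value of 9 ran from 15.5% to 16.9% on knockdown arrays and from 16.5% to 17.8% on control arrays, and 4 of 6 knockdown arrays, all 3 of shRNA B among them, but 0 of 5 control arrays, carried a suffix in their array name. RNA of fewer cells and less RNA per cell cannot be told apart in such bulk samples.

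A probe set can belong to several genes for different reasons. Recently duplicated genes (paralogues) can share the sequence that a probe reads, processed pseudogenes copy the exons of a parent gene elsewhere in the genome, and overlapping, nested or read-through transcription units share the same stretch of DNA. The signal of such a probe set is the sum over all transcripts that match it, so a change in it cannot be assigned to any of the genes named. The probe sequences themselves were not used here. The promoters of the loci that the results turn on show how alike their genes can be.

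The first pair, MZT2A and MZT2B on chromosome 2, carried the largest fall among the loci. RefSeq places their 300-base start windows in GRCh38.p14 at chr2:131492348-131492647 on the minus strand and at chr2:130182012-130182311 on the plus strand. They were identical at 278 of 300 aligned positions (92.7%), and the capitals mark the 22 that differ.
MZT2A: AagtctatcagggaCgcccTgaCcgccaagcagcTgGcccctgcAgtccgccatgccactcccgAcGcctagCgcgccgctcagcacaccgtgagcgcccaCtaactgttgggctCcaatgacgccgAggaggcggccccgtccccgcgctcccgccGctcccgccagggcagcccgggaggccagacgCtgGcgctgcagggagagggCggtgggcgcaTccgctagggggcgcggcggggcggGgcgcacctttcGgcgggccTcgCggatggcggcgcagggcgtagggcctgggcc
MZT2B: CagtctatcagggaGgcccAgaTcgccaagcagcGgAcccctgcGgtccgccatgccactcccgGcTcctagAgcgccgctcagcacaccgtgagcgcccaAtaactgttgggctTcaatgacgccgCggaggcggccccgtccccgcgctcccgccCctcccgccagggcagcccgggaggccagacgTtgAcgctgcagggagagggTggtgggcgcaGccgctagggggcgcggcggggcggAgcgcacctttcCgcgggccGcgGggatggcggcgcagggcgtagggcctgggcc

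The second pair, H3C14 and H3C15, are copies of a histone H3 gene on chromosome 1 that share a probe set with H3C13. Their windows, chr1:149841159-149841458 on the minus strand and chr1:149852358-149852657 on the plus strand, held the same 296 bases shifted by 4, and the capitals mark the bases without a partner.
H3C14: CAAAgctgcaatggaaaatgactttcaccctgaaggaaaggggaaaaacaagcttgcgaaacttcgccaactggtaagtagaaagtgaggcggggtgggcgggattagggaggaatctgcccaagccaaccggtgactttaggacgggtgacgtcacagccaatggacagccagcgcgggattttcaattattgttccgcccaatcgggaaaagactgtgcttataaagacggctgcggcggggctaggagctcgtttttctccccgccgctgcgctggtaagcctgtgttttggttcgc
H3C15: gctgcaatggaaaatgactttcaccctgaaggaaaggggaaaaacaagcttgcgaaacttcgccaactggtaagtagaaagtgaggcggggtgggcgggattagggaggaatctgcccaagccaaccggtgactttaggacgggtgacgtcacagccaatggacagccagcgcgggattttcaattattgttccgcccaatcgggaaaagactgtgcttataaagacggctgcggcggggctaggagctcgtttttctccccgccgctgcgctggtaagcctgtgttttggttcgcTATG

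Another pair, ARL6IP4 and OGFOD2, are neighbours on chromosome 12 with unlike names, whose RefSeq spans did not overlap. Their windows, chr12:122980431-122980730 and chr12:122974476-122974775, both on the plus strand, were identical in 48.8% of 340 alignment columns, and no capitals are set.
ARL6IP4: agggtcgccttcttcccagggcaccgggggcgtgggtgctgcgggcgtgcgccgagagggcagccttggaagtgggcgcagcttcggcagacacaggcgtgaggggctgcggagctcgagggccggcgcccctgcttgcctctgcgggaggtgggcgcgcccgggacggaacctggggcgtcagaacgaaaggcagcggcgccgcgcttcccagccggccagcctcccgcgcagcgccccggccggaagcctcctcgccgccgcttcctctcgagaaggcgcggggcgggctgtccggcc
OGFOD2: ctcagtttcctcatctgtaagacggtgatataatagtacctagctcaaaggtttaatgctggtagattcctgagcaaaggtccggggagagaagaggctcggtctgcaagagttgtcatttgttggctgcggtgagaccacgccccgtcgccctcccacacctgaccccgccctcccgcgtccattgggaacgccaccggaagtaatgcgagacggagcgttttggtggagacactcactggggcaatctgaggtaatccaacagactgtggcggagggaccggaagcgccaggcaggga

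Among 502 pairs of genes with both windows in the table, the median identity was 51.8% and 71 pairs exceeded 90%, 45 of them among 221 pairs of paralogue clusters, whose median was 64.4%. For 62 pairs on different chromosomes the median was 50.4%. Of 37 same-strand overlaps 11 exceeded 90%, some at 100%, and whether such windows are the same stretch of DNA was not checked. A few pairs, such as ZNG1E with ZNG1F, are counted more than once. The motif CCAAT, searched on both strands, occurred once in each MZT2 window and in 35.7% of 27305 promoters. The MZT2 matches do not align with each other, and each includes a base, marked by a capital, that differs in the other window. GGGCGG occurred in both MZT2 windows, both H3C windows and both windows of the chromosome 12 pair, and in 44.6% of promoters. TATAA, found in 21.1% of promoters, occurred in both H3C windows and that of OGFOD2, and these letters were not in the MZT2 windows or that of ARL6IP4. These matches describe the letters only.

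The largest kind of locus was the paralogue cluster, with 7638 probe sets in 878 loci. This kind was set by name, from a shared root or shared first letters on 1 chromosome, and neither distance nor relatedness was checked. It was assigned before the overlaps, so overlapping genes with like names are counted here. Genes on different chromosomes gave 2759 probe sets in 349 loci, and in 237 of those loci the symbols were alike, as for a gene and its pseudogene. Genes of the same chromosome whose RefSeq spans did not overlap gave 2663 probe sets in 353 loci. The remaining kinds were smaller, with 305 probe sets in 46 loci for overlaps on the same strand, 43 in 7 loci for opposite strands, 140 in 31 loci whose strand was not given, 269 in 25 read-through loci and 147 in 96 loci whose symbols include a small RNA. A further 581 probe sets in 39 loci carried old symbols that now name 1 gene, such as DNAH6, DNAH14 and MRC1, and 402 in 45 loci could not be placed.

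The levels of member probe sets were close to those of other annotated ones. Their median level, the mean over the 11 arrays on the log2 scale, was 7.96, against 7.98 for probe sets with 1 symbol. Above a level of 9 lay 16.5% of members, 13.0% of probe sets with 1 symbol and 1.69% of those without. The median level was 8.14 for genes on different chromosomes, 8.08 for loci that name a small RNA and 7.93 for paralogue clusters, and the brightest probe set of an opposite-strand overlap reached 8.44. Levels of different probe sets depend on their probes, so their order is a description of the array and not of transcript abundance.

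At the level of single probe sets, no member passed the test. In the pooled comparison of knockdown with control, 0 of 14947 members had an adjusted p under 0.05 (limma, adjusted over all 1379735 probe sets, of which 17 or 0.00123% passed), while 1844 members or 12.3% had an unadjusted p under 0.05, against 7.53% of all probe sets and 11.7% of those with 1 symbol. The smallest adjusted p among members, 0.0578, belonged to a probe set of WASH2P, WASH3P, WASH5P and WASHC1 that was lower by 0.43 (log2 difference -0.43). Of the 9433 members at or above the table median, 198 had all 6 knockdown arrays below all 5 controls and 20 had them above, which is 2.10% and 0.212%, beside 0.749% and 0.368% of all probe sets at or above the median. Of those 689868 probe sets, 451594 had no listed gene, and the shares were not computed for probe sets with 1 symbol alone. At or above the median, 15.5% of members, 13.8% of probe sets with 1 symbol and 6.61% of unlisted ones had an unadjusted p under 0.05 (limma).

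The 5 largest negative differences, taken among members at or above the table median of 7.91 whose groups did not overlap and with 1 probe set a locus, are given as values, since none passed the test. Probe set 2505395 of MZT2A and MZT2B measured 8.87, 8.87 and 8.16 in shRNA A and 8.71, 8.20 and 7.96 in shRNA B, against 9.08, 9.09 and 9.52 in GFP shRNA and 9.80 and 9.62 in empty vector cells (log2 difference -0.96, SE 0.21, limma adjusted p = 0.270). Probe set 2948918 of HLA-B and HLA-C, class I molecules that present peptides, measured 7.25, 7.38 and 7.60 in shRNA A and 8.04, 7.50 and 7.96 in shRNA B, against 8.35, 8.11 and 8.35 in GFP shRNA and 8.44 and 8.08 in empty vector cells (-0.64, SE 0.14, limma adjusted p = 0.292). The mean of probe set 2948918 was 7.62 in the knockdown, below the table median of 7.91, and 8.27 in controls. It thus met the level filter only through the controls, where it was high. The lowest array was shRNA A 1 for HLA-B and HLA-C and shRNA B 3 for MZT2A and MZT2B. Probe set 2434047 of H3C13, H3C14 and H3C15, core histone genes, ranged from 11.25 to 11.80 with a median of 11.61 in the knockdown, against 11.95 to 12.29 with a median of 12.18 in controls (-0.56, SE 0.13). Probe set 2382629 of DNAH14, a dynein heavy chain, differed by -0.54 (SE 0.09) although the DNAH14 locus as a whole differed by 0.01, and probe set 3757115 of JUP and KRT19, a junction protein and a keratin, by -0.53 (SE 0.11).

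The 5 largest positive differences, taken in the same way, did not pass either. Probe set 2492304 of RGPD1, RGPD2, RGPD3 and RGPD4, paralogues of the nucleoporin gene RANBP2, measured 9.40, 9.04 and 9.32 in shRNA A and 9.03, 9.14 and 9.30 in shRNA B, against 8.75, 8.92 and 9.00 in GFP shRNA and 8.57 and 8.41 in empty vector cells (0.48, SE 0.11, limma adjusted p = 0.309). The empty vector arrays were its lowest, and GFP shRNA differed from empty vector by 0.40. A second RGPD probe set, 2570495, differed by 0.38 (SE 0.11), one of POTEE and POTEF by 0.43 (SE 0.08), one of HNRNPA3 and its pseudogene HNRNPA3P1, an RNA-binding protein of nascent transcripts, by 0.42 (SE 0.12), and one of PMS2P3, POM121 and POM121C, of which the POM121 genes encode nucleoporins, by 0.36 (SE 0.09).

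To gather evidence over neighbouring probe sets, each locus with at least 4 member probe sets at or above the table median was valued on each array by their median. This gave 617 loci from 8119 probe sets, a median of 8 each, which were tested in 1 table with 14496 genes valued the same way from their own probe sets. The pooled difference was negative in 380 loci (61.6%) and positive in 237, with a median of -0.01, beside 67% negative and a median of -0.02 over the whole table of 15113. Of the loci, 5 passed and all 5 were lower in the knockdown, beside 48 of 15113 genes and loci (0.318%). In 14 of 617 loci all knockdown arrays lay below all controls (2.03% of the whole table), and in 3 they lay above (0.225% of the whole table). At an unadjusted p under 0.05 stood 112 loci (18.2%), against 15.3% of the table.

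MZT2A and MZT2B, which encode a small subunit of the gamma-tubulin ring complex, fell the most. The locus value was 8.90, 8.86 and 8.62 in shRNA A and 8.71, 8.61 and 8.39 in shRNA B, against 9.04, 9.05 and 9.43 in GFP shRNA and 9.60 and 9.41 in empty vector cells. The groups did not overlap, shRNA B 3 was lowest and empty vector 1 was highest. It fell by 0.62 on the log2 scale (log2 difference -0.62, SE 0.11, limma adjusted p = 0.0386), 1.54-fold lower; when the probe sets were averaged instead, it differed by -0.39 (limma adjusted p = 0.0204). It differed by -0.51 for shRNA A (limma adjusted p = 0.161) and was the locus that passed for shRNA B (-0.74, SE 0.12, limma adjusted p = 0.0376), where 10 of 15113 (0.0662%) passed.

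Its 8 probe sets differed among themselves. In the first run of IDs, 2505391 was the brightest at 11.32 and was higher by 0.09 (SE 0.14), whereas 2505395 differed by -0.96. In the second run, 2576572 differed by -0.83 (SE 0.17) and the dim 2576573, at a level of 6.78, by -1.34 (SE 0.39). The extremes thus lay in both runs, 7 of 8 were lower, and the 6 at or above the table median made up the locus value. Neither gene had a value from probe sets of its own.

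ARL6IP4, whose product is a nuclear protein that binds splicing regulators, and OGFOD2, a gene of a 2-oxoglutarate-dependent oxygenase domain, also fell. The locus value was 9.74, 9.52 and 9.54 in shRNA A and 9.60, 9.65 and 9.70 in shRNA B, against 10.24, 9.91 and 9.97 in GFP shRNA and 10.00 and 10.08 in empty vector cells. The ranges of both hairpins overlapped and the groups stood apart. It fell by 0.42 on the log2 scale (log2 difference -0.42, SE 0.07, limma adjusted p = 0.0386), 1.34-fold lower. Of 9 probe sets in a single run, 8 were lower, and the exception, 3435682, was dim at a level of 4.20. OGFOD2's own 12 probe sets differed by -0.07 (SE 0.03, limma adjusted p = 0.237), less than the shared ones, and ARL6IP4 had no value of its own.

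Pairs of a gene on chromosome 8 with a pseudogene on another chromosome made up the next falls. CIBAR1, a membrane-bending BAR domain protein of cilia, and CIBAR1P1 measured 8.88, 8.84 and 8.93 in shRNA A and 8.79, 8.93 and 8.71 in shRNA B, against 9.18, 8.98 and 9.17 in GFP shRNA and 9.20 and 9.24 in empty vector cells. The locus fell by 0.31 (log2 difference -0.31, SE 0.06, limma adjusted p = 0.0439), all 7 probe sets were lower, and GFP shRNA array 2 stood near the knockdown. The 7 differences ran from -0.33 to -0.02 with a median of -0.13, and when they were averaged for the locus value it differed by -0.15 (limma adjusted p = 0.0984). CIBAR1's own 6 probe sets differed by -0.09 (SE 0.04, limma adjusted p = 0.315).

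FABP5, the epidermal fatty acid-binding protein, and FABP5P7 had the smallest adjusted p of the loci. The value was 8.37, 8.34 and 8.26 in shRNA A and 8.32, 8.36 and 8.31 in shRNA B, against 8.55, 8.56 and 8.60 in GFP shRNA and 8.63 and 8.56 in empty vector cells. Both groups were tight and stood well apart. It fell by 0.25 (log2 difference -0.25, SE 0.04, limma adjusted p = 0.0204), 1.19-fold lower, and both hairpins differed by -0.25 from the control. With the mean of the probe sets it differed by -0.15 (limma adjusted p = 0.0550). Of its 17 probe sets 14 were lower. They lie in 5 separate runs of IDs, and the median difference was -0.20, -0.08, -0.25, -0.07 and -0.02 in these runs, taken in order of ID.

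WASH2P and WASH3P are pseudogene copies of the gene for the WASH protein, which promotes actin branching on endosomes. The value was 7.99, 8.01 and 7.94 in shRNA A and 8.07, 8.01 and 7.94 in shRNA B, against 8.14, 8.18 and 8.08 in GFP shRNA and 8.15 and 8.13 in empty vector cells. All 11 values lie near the table median of 7.91, and the groups nearly met, at 8.07 in shRNA B 1 and 8.08 in GFP shRNA 3. The locus fell by 0.14 (log2 difference -0.14, SE 0.025, limma adjusted p = 0.0413), and all 4 of its probe sets, each in a run of its own, were lower. Its relatives did not all go the same way: WASH2P, WASH3P, WASH5P and WASHC1 together, with 82 probe sets in the value, differed by -0.15 (SE 0.05, limma adjusted p = 0.166), and WASH2P with WASH5P by 0.19 (SE 0.14, limma adjusted p = 0.559).

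**Figure D1:**
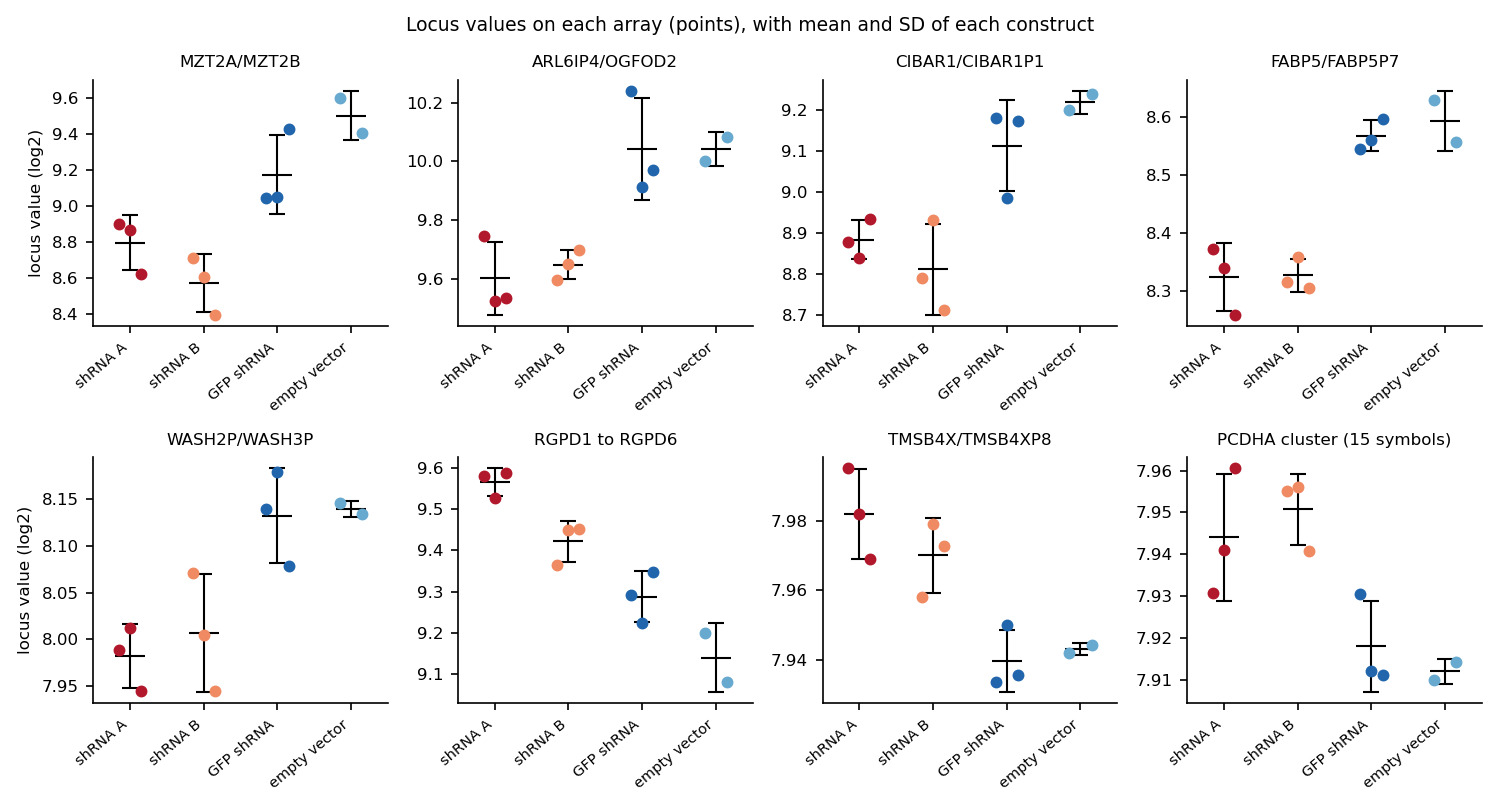
Locus value in log2 units on each array for the 5 loci that fell and the 3 loci whose knockdown arrays all lay above the controls, with points for arrays and bars for mean and SD of shRNA A, shRNA B, GFP shRNA (3 arrays each) and empty vector (2 arrays). The vertical axes differ in range and do not start at 0; MZT2A/MZT2B spans 8.39 to 9.60, whereas the PCDHA cluster spans 7.91 to 7.96.

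**Figure D2:**
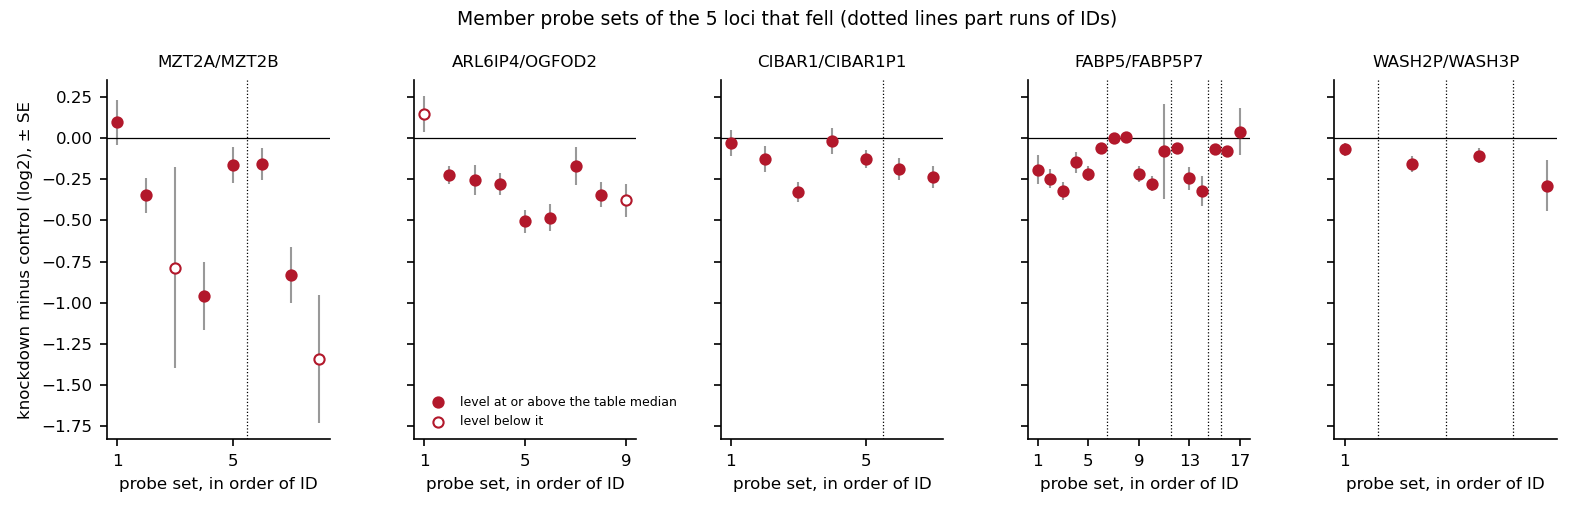
Knockdown minus control difference (log2, with SE) of every member probe set of the 5 loci that fell, in order of probe set ID, with open points for levels below the table median and dotted lines where IDs jump by more than 1000. MZT2A/MZT2B ranges from 0.09 to -1.34, and the 7 probe sets of CIBAR1/CIBAR1P1 all lie below 0.

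The calls depended on single arrays. How many of all genes and loci passed in each setting below is not given here. The counts therefore describe the loci only and cannot be set against the whole table. No locus passed without empty vector 1, without GFP shRNA 3 or without shRNA A 3 (limma, 90, 101 and 106 loci at an unadjusted p under 0.05), 1 passed without shRNA B 1 or without shRNA B 2, 2 without GFP shRNA 1, shRNA A 2 or shRNA B 3, 3 without shRNA A 1, and 8 without empty vector 2. The shRNA B call was lost without any 1 of empty vector 1 or 2, GFP shRNA 3, shRNA A 1, 2 or 3 and shRNA B 1 or 3, each of which left 0 loci (limma). When the suffix was fitted as a block, which leaves shRNA A 1 and 2 against the controls, 0 loci passed (limma, 70 at an unadjusted p under 0.05), and the 5 loci differed by -0.42, -0.41, -0.30, -0.22 and -0.13 in the order given above. Leaving out the brightest and the dimmest array, GFP shRNA 1 and shRNA B 1, also left 0 loci that passed (limma, 99 at an unadjusted p under 0.05), with differences of -0.70, -0.36, -0.29, -0.26 and -0.15, again all negative.

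No locus rose by the test. The set of RGPD1 to RGPD6 was the widest of the 3 loci that lay wholly above the controls. It measured 9.58, 9.53 and 9.59 in shRNA A and 9.37, 9.45 and 9.45 in shRNA B, against 9.29, 9.22 and 9.35 in GFP shRNA and 9.20 and 9.08 in empty vector cells (log2 difference 0.26, SE 0.06, limma adjusted p = 0.0762). The shRNA A arrays were highest and the empty vector arrays lowest, and GFP shRNA differed from empty vector by 0.15 (limma adjusted p = 0.948). Of its 27 probe sets 25 were higher in the knockdown, with a median of 0.14, and with their mean as the locus value the difference was 0.14 (limma adjusted p = 0.213). The genes' own probe sets gave differences of -0.06 for RGPD3, -0.01 for RGPD4 and 0.00 for RGPD5.

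The other loci above the controls lay near the table median. TMSB4X, which encodes the actin-binding peptide thymosin beta 4, shared with TMSB4XP8, differed by 0.04 (SE 0.01, limma adjusted p = 0.104), although 3 of its 5 probe sets were lower. The 15 symbols of the PCDHA cluster, cadherin-like neuronal adhesion genes with shared constant exons, differed by 0.03 (SE 0.01, limma adjusted p = 0.0921). Of its 9 probe sets 3 were lower, and without the filter on dim probe sets the PCDHA cluster differed by 0.014. The filter uses the mean over all 11 arrays, so a probe set near the cut can enter through the higher group alone. With the mean of the probe sets in place of the median, TMSB4X/TMSB4XP8 differed by -0.01.

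Among kinds of locus, falls that passed lay in 3, namely 3 of 134 loci on different chromosomes, 1 of 265 paralogue clusters and 1 of 129 loci on the same chromosome without overlap. The median difference was -0.06 over 16 read-through loci, 13 of them lower, and -0.08 over 6 small RNA loci, all 6 lower, beside -0.02 over the whole table. Of these, the widest read-through values were RPP21 with TRIM39-RPP21 at -0.23 (SE 0.08) and UBE2V1 with PEDS1-UBE2V1, a ubiquitin-conjugating enzyme variant, at 0.17 (SE 0.09). Neither passed. The longest read-through locus, ANKHD1 with EIF4EBP3, differed by -0.07 (SE 0.05) over 54 probe sets. The difference was negative in 296 of 451 loci with 2 symbols, 51 of 89 with 3, 22 of 50 with 4 to 6 and 11 of 27 with 7 or more, and these shares were not tested against each other.

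**Figure D3:**
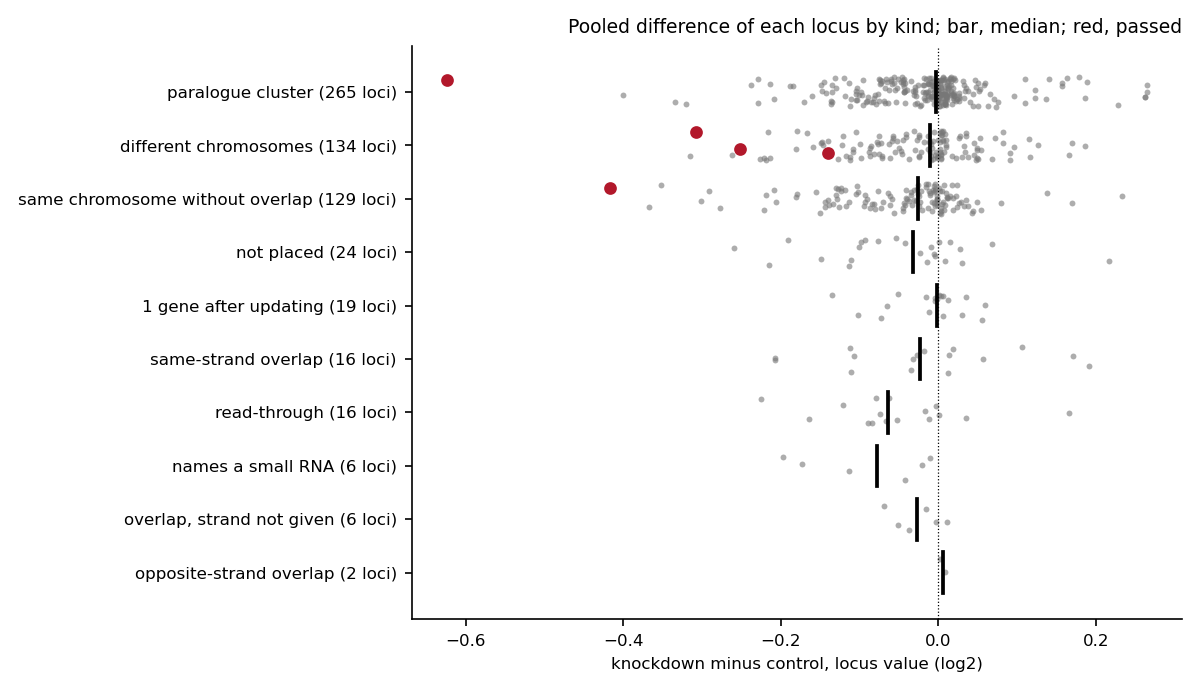
Knockdown minus control difference (log2) of each of the 617 loci by kind, with bars for medians and red points for the 5 loci with an adjusted p under 0.05. Most loci gather near 0, the red points all lie left of it, and the 6 small RNA loci lie below 0.

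The small RNA loci hold snoRNAs, most of which guide ribosomal RNA modification and are cut from introns, and 1 microRNA. SNHG7 with SNORA17B differed by -0.11 (SE 0.07) over 10 probe sets, and RPS12 with SNORA33 by -0.01 (SE 0.12). The SNORD3 genes, copies of the U3 snoRNA, which acts in the cleavage of ribosomal RNA precursors and has a promoter of its own, differed by 0.12 in shRNA A but by -0.52 in shRNA B, and the difference between the hairpins did not pass. MIR21 shares 2 probe sets with VMP1, an autophagy gene that it overlaps. Its mature product, placed by RefSeq at chr17:59841273-59841294 on the plus strand of GRCh38.p14, is shown with its seed, bases 2 to 8, in capitals, because it is the only microRNA among the members.
hsa-miR-21-5p: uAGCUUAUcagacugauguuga

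Probe set 3728956 of MIR21 and VMP1 measured 10.77, 10.93 and 10.83 in shRNA A and 10.93, 11.16 and 10.97 in shRNA B, against 10.76, 10.73 and 10.83 in GFP shRNA and 10.65 and 10.82 in empty vector cells (log2 difference 0.18, SE 0.07, limma adjusted p = 0.607). The groups overlapped. The second, 3728957, differed by -0.01 (SE 0.05), and the 16 probe sets of VMP1 alone by 0.06 (SE 0.07).

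Gene lists were described by their loci. Of 9 valued histone loci 8 were lower, with a median of -0.07, and of 7 ribosomal protein loci all 7 were lower, with a median of -0.06. Over the whole table of genes and loci 67% were lower, and no locus of either list passed. The median over histone probe sets at or above the table median was -0.03 for shRNA A and -0.11 for shRNA B. For ribosomal protein probe sets it was -0.02 and -0.14. All shRNA B arrays carried the name suffix. H3C13, H3C14 and H3C15 differed by -0.37 (limma adjusted p = 0.230), the H2AC11 to H2AC17 set by -0.22 (SE 0.06, limma adjusted p = 0.0893), and RPL29 with RPL29P4 by -0.22 (SE 0.09, limma adjusted p = 0.226). These members were also bright, with 42.6% of histone probe sets and 61.9% of ribosomal protein probe sets above a level of 9, and the share of members above 9 was lower on knockdown arrays (median 16.2%) than on control arrays (median 16.9%). Its part in these values was not tested.

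Of 2 clustered protocadherin loci, the PCDHA cluster and PCDHGA12 with PCDHGC3, the second differed by 0.11 (SE 0.04, limma adjusted p = 0.189). The core duplicon families, gene families spread by segmental duplication in primates, went both ways, 22 loci lower and 35 higher of 57, with a median of 0.00. Within them, 14 of 19 RGPD loci were higher, with a median of 0.12, while none passed; this family and the WASH family were singled out after their values were seen. The 92-probe-set and 132-probe-set loci of NBPF genes differed by -0.01 (SE 0.06) and 0.12 (SE 0.08), and GOLGA8 loci with 122 probe sets by 0.01 (SE 0.01). RGPD member probe sets also differed between the controls, with a median of 0.18 for GFP shRNA minus empty vector, against 0.09 for knockdown minus control.

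The HLA-B and HLA-C locus differed by -0.35 (SE 0.07, limma adjusted p = 0.0507), with 11 of 13 probe sets lower, and was the widest change among 6 valued loci of immune receptors and HLA. Of 13 splicing and elongation loci 7 were lower, with a median of 0.00. Several of them were RBMY sets, at -0.02 to 0.01. HNRNPA1 differed by -0.04 with HNRNPA1L2, by 0.02 with HNRNPA1P10 and by -0.09 (SE 0.08) with both. Of 25 zinc finger loci none passed. Cancer-testis genes, normally silent outside the germ line, were mostly dim, with 33.9% of 416 probe sets at or above the table median. The SPANX set, of the sperm nucleus, differed by 0.27 (SE 0.13, limma adjusted p = 0.355) at a mean of 10.1 in the knockdown and 9.82 in controls. The UGT1A cluster, drug-conjugating enzymes with alternative first exons, gave 1 valued locus, at 0.01 (SE 0.01), and 0 of its 54 probe sets exceeded 9. The 3 imprinted loci, SNRPN with SNURF, IGF2 with INS-IGF2 and PEG3 with ZIM2, differed by 0.02 (SE 0.01), -0.07 (SE 0.03) and -0.02 (SE 0.02), and none passed.

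**Figure D4:**
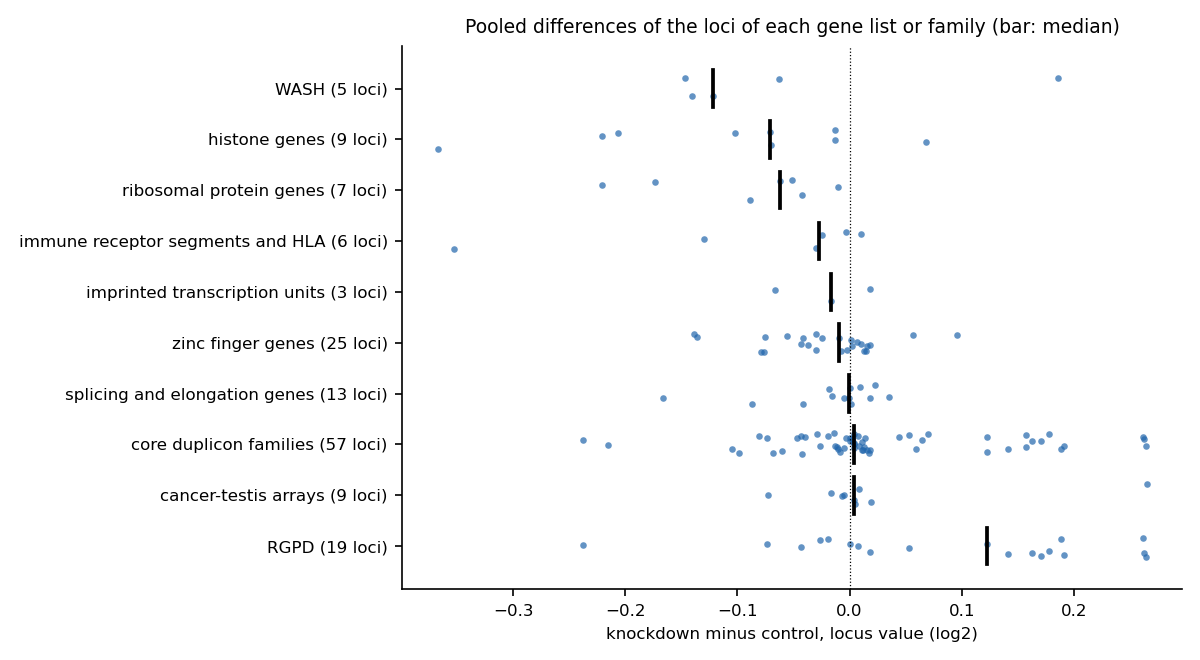
Knockdown minus control difference (log2) of the valued loci of each gene list with at least 3 such loci, and of the RGPD and WASH families, with bars for medians and the number of loci in brackets. Histone and ribosomal protein loci lie mostly left of 0, and the RGPD loci run from -0.24 to 0.26 with a median of 0.12.

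The shared probe sets could be set against the genes' own probe sets in 407 loci, while the other 210 had no own gene value. The differences had the same sign in 235 loci (57.7%), and they were more than 0.2 apart in 25. Across loci, which are not independent replicates and share the same 11 arrays, Pearson's r was 0.22 and Spearman's rho 0.28. Among paralogue clusters r was 0.20 over 160 loci, and among loci on different chromosomes 0.26 over 98. For ANP32A, an acidic nuclear phosphoprotein, both differences were negative and neither passed, at -0.32 (SE 0.07) for probe sets shared with ANP32CP and -0.27 (SE 0.09) for its own 13.

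**Figure D5:**
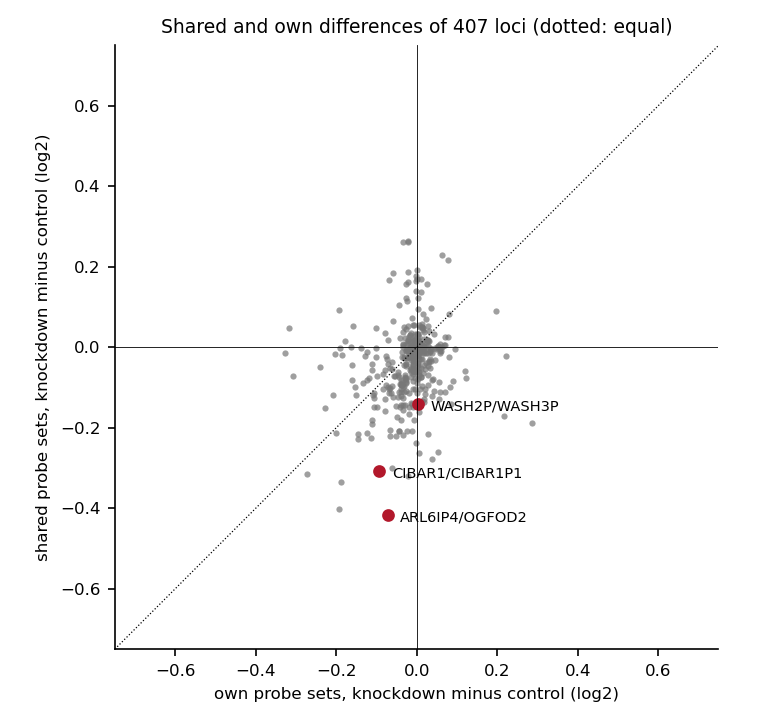
Knockdown minus control difference (log2) of the shared probe sets (vertical axis) against the mean difference of the component genes' own values (horizontal axis) for 407 loci, with the dotted line marking equal differences. The 3 loci that fell and have own values, in red, lie below the line, WASH2P/WASH3P at 0.00 own and -0.14 shared.

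The same contrast was tested per probe set, as the member's value minus the mean of its genes' own values on each array. Of 6558 members with such a value 1 passed, beside 8 of 227536 probe sets tested this way (0.00352%), while 100 members had all knockdown arrays below all controls and 35 above, which is 1.52% and 0.534%, beside 0.698% and 0.768% of that table, and 1052 (16.0%) had an unadjusted p under 0.05, beside 11.9%. The member that passed was probe set 3529356 of DHRS4 and DHRS4L2, neighbouring retinol dehydrogenase/reductase paralogues on chromosome 14. Its index was -0.11, -0.23 and -0.15 in shRNA A and -0.11, -0.13 and -0.05 in shRNA B, against 0.27, 0.20 and 0.12 in GFP shRNA and 0.16 and 0.23 in empty vector cells. Every knockdown array was negative and every control array positive. The difference was -0.33 (SE 0.04, limma adjusted p = 0.0495), whereas the probe set itself differed by -0.27 (limma adjusted p = 0.266) and DHRS4's own value, from 4 probe sets, by 0.06 (SE 0.05). No member passed when empty vector 1 or 2, GFP shRNA 2 or 3, shRNA A 1, 2 or 3 or shRNA B 2 or 3 was left out (limma), and 5 passed without GFP shRNA 1.

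The constructs were also compared one by one. These comparisons share the control arrays, so their values are given side by side only. For shRNA A against control, 0 probe sets passed among members (limma, background 0.000145%; 1474 at an unadjusted p under 0.05, background 6.09%) and 0 loci (background 0.00662%; 81 at an unadjusted p under 0.05, background 10.8%). For shRNA B against control, 0 member probe sets (limma, background 0.000217%) and 1 locus, MZT2A and MZT2B (background 0.0662%), passed, with 1669 (background 7.39%) and 104 (background 13.4%) at an unadjusted p under 0.05. The differences of the 5 loci were -0.51, -0.44, -0.27, -0.25 and -0.15 for shRNA A and -0.74, -0.39, -0.34, -0.25 and -0.13 for shRNA B, in the order given above. For shRNA B against shRNA A, 0 member probe sets and 0 loci passed (limma, background 0% in both), with 831 (background 4.89%) and 30 (background 4.45%) at an unadjusted p under 0.05. For GFP shRNA against empty vector, 0 member probe sets (limma, background 7.25e-05%) and 0 loci (background 0.00662%) passed, with 883 (background 4.8%) and 30 (background 4.46%) at an unadjusted p under 0.05. The difference of MZT2A and MZT2B there was -0.33 (SE 0.13, limma adjusted p = 0.948). For any difference among the 4 constructs, 0 member probe sets (limma, background 0.000145%) and 0 loci (background 0.0265%) passed, with 1516 (background 6.19%) and 78 (background 9.86%) at an unadjusted p under 0.05 and the smallest adjusted p, 0.0512, again at MZT2A and MZT2B.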

How the data were processed

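Values on the log2 scale for 1399022 exon probe sets and 11 arrays were used as the authors deposited them, with a placeholder near 0 read as no estimate. Their software, normalization and genome build: not given in the sources used here. Per the labels' protocols, total RNA from RNeasy columns was treated with DNase and labelled for Affymetrix whole-transcript arrays.

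Members and lists were chosen with earlier results of these data known. Symbols came from the platform annotation and were updated through RefSeq synonyms of GRCh38.p14 (of 2452 symbols, 1927 were current, 477 updated and 48 kept). Kinds were set by a fixed order of rules; strand came from the promoter table and was missing for some genes, and read-through was recognised by hyphenated symbols only. Promoter sequences and the microRNA are RefSeq's and were aligned with Biopython 1.88.

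Differences were tested with limma 3.58.1 (lmFit, eBayes with a trend; R 4.3.3, Python 3.11.15, pandas 2.3.3) with 2 levels for the pooled comparison, 3 for each shRNA and 4 for the controls and the F test. P-values were adjusted by Benjamini-Hochberg over all features tested, and an adjusted p under 0.05 passed. A locus needed 4 probe sets with a mean at or above 7.91. The tests were tried on simulated data. The text names loci that passed, the 5 widest in a direction where fewer than 5 passed (groups not overlapping; for probe sets, at or above the table median and 1 a locus), and for each kind or list those with the most probe sets or the widest change; the WASH and RGPD families were picked after their values were seen. The number of arrays limits the precision.

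Alternatives were another normalization, trend, filters, blocks, levels, summaries and leaving out arrays.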

Additional observations from a re-analysis of the deposited data

Results flagged for a closer look

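In 4 places a single array stood apart from the others of its group. Of 38 groups checked, 4 stood out. Chance gives about 1 in 20 for independent groups that were not selected. The groups checked came from 19 items named for their values in these data and share the same 11 arrays. The count therefore cannot be set against that rate, and no cause was tested. The PCDHA cluster measured 7.93 on GFP shRNA array 1, the highest control, with the next control at 7.91. CIBAR1 and CIBAR1P1 measured 8.98 on GFP shRNA array 2, the lowest control, with the next at 9.17. The JUP and KRT19 probe set 3757115 measured 8.55 on shRNA A array 2, the lowest knockdown array, with the next at 8.75. The HNRNPA3 and HNRNPA3P1 probe set 2517327 measured 9.48 on empty vector array 2, the lowest control, with the next at 10.07.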

How the results depend on the processing

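Leaving out the brightest and dimmest arrays and using only arrays without the suffix were chosen after seeing the data. The counts in this section are of members only. Whole-table counts for the same settings are not given here, so the members cannot be set against them. The 5 pooled loci became 4 after quantile normalization (4 of them among the 5), 8 without a trend (4), 3 without the filter on dim probe sets (2), 3 with 4 levels (3), 16 with the mean of the probe sets (2; 15 lower, 1 higher), 2 with at least 2 probe sets (1), and 0 with the suffix as a block, with the brightest and dimmest arrays left out and on arrays without the suffix (68 to 99 loci at an unadjusted p under 0.05 there by limma). Leaving out 1 array gave 0 to 8: 0 without empty vector 1, GFP shRNA 3 or shRNA A 3, 1 without shRNA B 1 or 2, 2 without GFP shRNA 1, shRNA A 2 or shRNA B 3, 3 without shRNA A 1, 5 without GFP shRNA 2 (4 of them among the 5) and 8 without empty vector 2 (4). All 5 stayed negative throughout, but with the mean MZT2A/MZT2B, ARL6IP4/OGFOD2, CIBAR1/CIBAR1P1 and FABP5/FABP5P7 shrank to -0.39, -0.32, -0.15 and -0.15. FABP5/FABP5P7 passed in 13 of 21 alternatives, ARL6IP4/OGFOD2 in 10, MZT2A/MZT2B in 8, WASH2P/WASH3P in 5 and CIBAR1/CIBAR1P1 in 2. TMSB4X/TMSB4XP8 was reversed to -0.0069 with the mean of the probe sets. Replicate numbers did not pair the arrays: correlations of same-numbered arrays' deviations lay between -0.14 and 0.27, and 4 of 11 arrays correlated best with their own number. With the replicate block, 3 pooled loci, 1 pooled probe set, 0 loci for shRNA B and 0 indices of shared minus own signal passed. The shRNA B locus count of 1 was 0 after quantile normalization, without the filter, with at least 2 probe sets and without the brightest and dimmest arrays, 3 with the mean, and 0 to 1 leaving out 1 array. The shRNA A locus count of 0 was 2 without a trend and with the mean, and 1 without the filter. Shared minus own, 1 in the report, was 5 without a trend, 0 after quantile normalization, under the suffix block, on arrays without the suffix and without the brightest and dimmest, and 0 to 5 leaving out 1 array. For probe sets the pooled count was 1 with the suffix block; leaving out 1 array gave 0 to 1 for the pooled, shRNA A, shRNA B, shRNA B against shRNA A, GFP shRNA against empty vector and 4-construct comparisons, and 0 to 1 loci for the 4 constructs. The cause of these changes was not tested. Signals near the table median limit the size of changes that this scale can show.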

Other observations

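Probe set 3937731 of TMEM191B and TMEM191C, paralogous transmembrane protein genes, was chosen after its values were seen, as the member with the smallest adjusted p for shRNA A. It measured 7.46, 5.74 and 7.33 in shRNA A and 4.09, 4.06 and 3.99 in shRNA B, against 3.41, 3.65 and 3.66 in GFP shRNA and 3.38 and 3.37 in empty vector cells. The pooled difference was 1.95 (SE 0.69, limma adjusted p = 0.535), and all 6 knockdown arrays lay above all 5 controls, wider than the rises of brighter members given in the report. The difference was 3.35 for shRNA A (SE 0.33, limma adjusted p = 0.197) and 0.56 for shRNA B (SE 0.33, limma adjusted p = 0.785), and shRNA B minus shRNA A was -2.79 (SE 0.37, limma adjusted p = 0.799), so none passed. The shRNA A arrays were high and spread over more than 1 log2 unit, and all its values lay below the table median.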
